A study of Mus musculus with 9 samples.

Results

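In mouse lung epithelial cells that express ectopic Sox2, the Sox2 binding sites listed after deletion of Nkx2-1 were set beside those listed with Nkx2-1 intact. The members are all summits of the authors' deposited lists for these 2 libraries, 2589 with Nkx2-1 deletion and 229 without, or 2818 of the 3370 summits in the series. A summit counted as shared when its region overlapped a region of the other list by at least 1 bp. The remaining 552 summits form the wildtype list, which is used below only to say where a site was also listed.

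The assay, ChIP-seq, counts DNA fragments pulled down with an antibody against the bound protein. Per the labels, all cells were lung epithelial cells of the C57BL/6 strain with an age of 8 weeks, and the same goat antibody against Sox2 was used. The deletion group had ectopic expression of Sox2 and deletion of Nkx2-1, the ectopic group had ectopic expression of Sox2 with Nkx2-1 intact, and the wildtype group had neither. The driver of ectopic Sox2, the way Nkx2-1 was deleted, whether animals were pooled and whether a group was 1 clone are points the labels used here leave unsaid. Each group has 1 Sox2 ChIP library, so no difference between groups has a replicate check, and intervals are exact 95% intervals for counting error only. PCR copies were not told apart by molecular identifiers.

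Sox2 is an HMG-box transcription factor that marks the proximal airway and the oesophagus in the developing foregut and maintains basal cells in stratified epithelia. Nkx2-1 is a homeodomain factor that sets lung identity and sustains the surfactant genes of the alveolus. Sox factors bend DNA at short sites built around ATTGT or CTTTGT, and in stem cells Sox2 often binds beside Oct4, an octamer-binding factor, on a joined Sox and octamer site.

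Counts of letters at transcription starts are given below, so leading start sequences of each set of sites are shown here. The lines below give the 250 bases before a RefSeq transcription start (GRCm38.p6, the same build as mm10), 5′ to 3′ on the strand of the gene. Capitals mark ATTGT or CTTTGT on either strand, and in Nrarp the joined site, ATTGT and ATGCAAA with 1 base between. Ranked were only starts with a summit from 250 bases before to 50 bases after them. Shown are the 2 of these with the highest ectopic −log10 q in both lists, and the 2 outside the deletion list. Also shown are the 5 of these with the highest deletion −log10 q outside the ectopic list. Gpx2 was added as a glutathione peroxidase gene of a list used below.
Listed in both libraries, Nrarp (chr2:25180508-25180757, plus strand): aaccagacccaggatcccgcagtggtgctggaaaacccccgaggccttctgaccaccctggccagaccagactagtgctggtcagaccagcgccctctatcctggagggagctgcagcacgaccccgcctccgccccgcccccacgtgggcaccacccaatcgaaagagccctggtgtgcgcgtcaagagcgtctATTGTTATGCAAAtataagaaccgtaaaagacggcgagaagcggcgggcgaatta
Listed in both libraries, Pdcd5 (chr7:35647483-35647732, minus strand): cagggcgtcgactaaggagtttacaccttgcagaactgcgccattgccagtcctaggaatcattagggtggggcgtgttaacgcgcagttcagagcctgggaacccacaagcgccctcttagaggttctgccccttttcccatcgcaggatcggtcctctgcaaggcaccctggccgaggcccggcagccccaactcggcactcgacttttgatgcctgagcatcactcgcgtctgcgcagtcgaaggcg
Listed with ectopic Sox2 alone, Snrpb2 (chr2:143062819-143063068, plus strand): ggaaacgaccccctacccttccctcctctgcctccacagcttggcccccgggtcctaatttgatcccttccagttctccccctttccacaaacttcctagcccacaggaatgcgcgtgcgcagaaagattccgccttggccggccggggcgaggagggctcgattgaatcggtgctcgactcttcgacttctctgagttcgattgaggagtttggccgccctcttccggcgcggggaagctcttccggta
Listed with ectopic Sox2 alone, Ino80 (chr2:119477688-119477937, minus strand): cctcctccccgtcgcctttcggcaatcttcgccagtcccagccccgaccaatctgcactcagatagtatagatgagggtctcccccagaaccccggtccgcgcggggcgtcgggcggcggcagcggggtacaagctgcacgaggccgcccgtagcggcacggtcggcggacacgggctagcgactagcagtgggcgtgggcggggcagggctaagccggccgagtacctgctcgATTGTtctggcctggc
Listed with Nkx2-1 deletion, Cutal (chr2:34874146-34874395, plus strand): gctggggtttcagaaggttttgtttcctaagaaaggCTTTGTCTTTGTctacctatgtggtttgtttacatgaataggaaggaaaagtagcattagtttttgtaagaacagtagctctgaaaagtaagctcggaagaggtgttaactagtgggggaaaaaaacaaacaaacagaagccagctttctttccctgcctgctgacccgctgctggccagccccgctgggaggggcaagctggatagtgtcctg
Listed with Nkx2-1 deletion, Emsy (chr7:98656578-98656827, minus strand): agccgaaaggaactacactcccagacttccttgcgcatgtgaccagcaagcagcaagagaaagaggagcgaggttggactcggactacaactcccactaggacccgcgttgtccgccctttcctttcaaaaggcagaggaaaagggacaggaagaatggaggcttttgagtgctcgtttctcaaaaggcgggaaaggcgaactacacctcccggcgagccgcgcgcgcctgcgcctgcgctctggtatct
Listed with Nkx2-1 deletion, Ablim1 (chr19:57119025-57119274, minus strand): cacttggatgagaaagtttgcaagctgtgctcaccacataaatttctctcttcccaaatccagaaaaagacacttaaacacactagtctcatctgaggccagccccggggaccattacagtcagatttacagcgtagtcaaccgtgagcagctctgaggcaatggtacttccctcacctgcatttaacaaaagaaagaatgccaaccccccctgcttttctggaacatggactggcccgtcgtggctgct
Listed with Nkx2-1 deletion, Lyrm1 (chr7:119899861-119900110, plus strand): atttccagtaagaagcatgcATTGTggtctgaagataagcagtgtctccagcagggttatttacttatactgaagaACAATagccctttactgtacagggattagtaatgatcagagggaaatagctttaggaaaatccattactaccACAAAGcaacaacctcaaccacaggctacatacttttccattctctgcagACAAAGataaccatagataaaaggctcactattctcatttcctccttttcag
Listed with Nkx2-1 deletion, Sprr2a3 (chr3:92285054-92285303, plus strand): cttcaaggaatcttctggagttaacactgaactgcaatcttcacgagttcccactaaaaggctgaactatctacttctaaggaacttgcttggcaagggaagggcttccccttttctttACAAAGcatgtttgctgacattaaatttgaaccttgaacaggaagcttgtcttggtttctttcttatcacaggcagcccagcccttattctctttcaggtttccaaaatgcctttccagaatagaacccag
Listed with Nkx2-1 deletion, Gpx2 (chr12:76795555-76795804, minus strand): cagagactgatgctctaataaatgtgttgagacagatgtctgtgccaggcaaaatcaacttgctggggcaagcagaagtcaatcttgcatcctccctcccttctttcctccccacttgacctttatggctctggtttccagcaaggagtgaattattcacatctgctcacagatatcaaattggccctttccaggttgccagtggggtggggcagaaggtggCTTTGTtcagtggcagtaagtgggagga

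The listed folds and −log10 p values fix the number of ChIP fragments behind each summit. The mean ChIP coverage so recovered was 1.45 fragments per position with Nkx2-1 deletion and 0.764 with ectopic Sox2 alone, a depth ratio of 1.90. The deletion list was 11.3 times as long and reached down to a −log10 p of 4.70, against 5.47 in the ectopic list. Fragments and control background of every deletion summit were scaled to the ectopic library, without counting noise. On the scale of the lists, signal and background then both fall by the control depth ratio of 1.26. So scaled, 2293 of 2589 deletion summits (88.6%) would still reach the lowest −log10 p of the ectopic list. Absence from a list means that no region was called there, and the number of fragments at such a place is not known. No summit lay within 50 kb of Sox2 or Nkx2-1 in either list. The lists carry no expression value, so the labelled genotypes were not checked.

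Sites listed with ectopic Sox2 alone split almost evenly between those that were also listed after Nkx2-1 deletion and those that were not, while few deletion sites were also listed without it. A region of the deletion list overlapped 119 of the 229 ectopic summits, or 52.0% (interval 45.3% to 58.6%). From the other side, 119 of 2589 deletion summits overlapped an ectopic region, or 4.60% (3.82% to 5.48%). Sites in both lists were also the ones most often listed in wildtype cells. Of the shared ectopic summits, 63 of 119 (52.9%) overlapped a wildtype region, against 38 of the 110 ectopic summits outside the deletion list (34.5%). Of the 2470 deletion summits outside the ectopic list, 211 (8.54%) overlapped a wildtype region, which leaves 2259 in neither other list. Below, a site of 1 list only is one outside the other of these 2 lists, whether or not it was in the wildtype list.

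**Figure D1:**
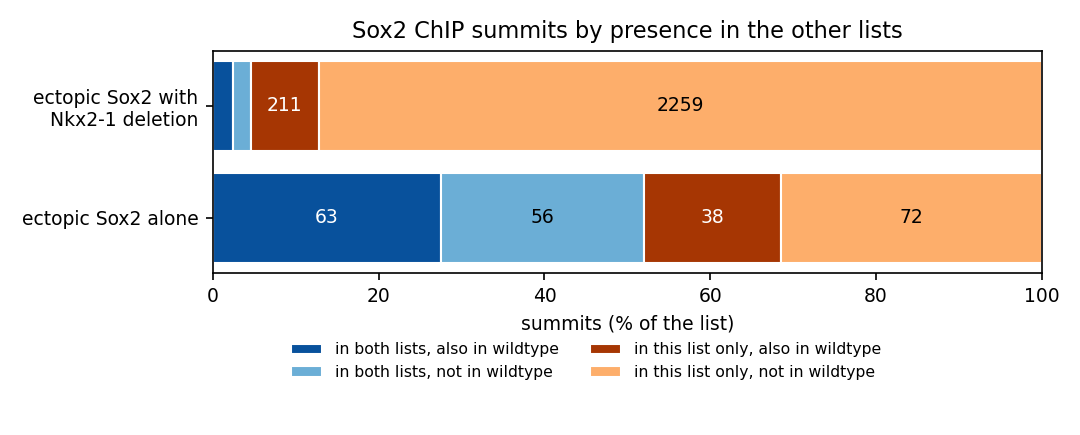
Horizontal bars give the percentage of summits in each list (x axis) that also lie in the other list, in the wildtype list, in both or in neither; numbers in the bars are summits. The deletion bar is filled mostly by its 2259 summits found in no other list, and the ectopic bar is split into 63, 56, 38 and 72.

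The share held in common fell along the deletion list. It was 16% among the 100 deletion summits with the highest −log10 q, 8.5% over ranks 101 to 500, 3.3% over ranks 1001 to 2000, and 1.53% over the last 589. The share also listed in wildtype fell from 36% to 5.60% over the same ranks. In the ectopic list the share held in common had no such slope. Of its top 50 summits 52% were in the deletion list, of ranks 51 to 100 46%, and of the rest 54.3%. Its share also listed in wildtype did fall, from 62% to 42% and 38.0% over the same ranks. Ectopic summits that were not shared were seldom close misses. Their median distance to a deletion summit was 216 kb, 2 of 110 lay within 10 kb of one, and 74 (67.3%) lay over 100 kb away. Scaled to the depth of the deletion library, all 110 would reach the lowest −log10 p of its list, as would all 119 shared ectopic summits. This outcome was fixed in advance, because scaling to a deeper library raises −log10 p and that list reaches lower. It therefore does not show why the 110 were not listed.

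At the 119 shared regions, the binding signal per unit of depth was close to equal on the whole and slightly higher with Nkx2-1 deletion. The median ratio of deletion to ectopic fragments, after subtraction of the control background and division by the depth ratio, was 1.21, with quartiles of 0.990 and 1.47. It lay above 1 at 89 regions and below 1 at 30. For single regions, with unsubtracted fragments, the interval lay wholly above 1 at 27, wholly below 1 at 5, and included 1 at 87. Summits stayed in place, with a median shift of 21 bp and 107 of 119 (89.9%) within 50 bp. A region had to be called in each library to enter, so places with a large difference are missing from this set.

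The 10 shared regions with the highest −log10 q in the ectopic list had ratios from 0.334 to 1.27, and ranking by the ectopic list favours low ones. The region 18.3 kb from Klf13, a zinc-finger factor, held 36 fragments with ectopic Sox2 alone and 87 with Nkx2-1 deletion, a ratio of 1.27 (0.853 to 1.93). The one 173 kb from Runx1, a factor of blood and epithelial stem cells, held 57 and 126 (1.16, 0.844 to 1.62). Inside Vsnl1, a neuronal calcium sensor gene, the counts were 43 and 96 (1.17, 0.812 to 1.72). These 3 followed the difference in depth, and each interval includes 1. Near Ctsl, which encodes the protease cathepsin L, the counts were 53 and 95 (0.943, 0.667 to 1.35), and inside Aspa, an aspartoacylase gene, 61 and 108 (0.931, 0.674 to 1.30). At 404 kb from Tbl1xr1, a corepressor subunit gene, they were 36 and 54 (0.789, 0.508 to 1.24). The remaining 4 were those of Smarce1, Pdcd5, Psmd3 and Nrarp, described below.

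Of the 5 regions with the lowest background-subtracted ratios, 4 sat within 1 kb of an end of a gene's span. On chr11:99200111-99200340, 8.82 kb from the chromatin remodelling gene Smarce1, 63 fragments with ectopic Sox2 alone stood against 40 with deletion, a ratio of 0.334 (0.219 to 0.504). At Exoc2, an exocyst subunit gene, the counts 34 bp before the start were 52 and 58 (0.587, 0.397 to 0.870). At Pdcd5, a gene linked to apoptosis, they were 39 and 43 at 53 bp before it (0.580, 0.367 to 0.919). Next to Psmd3, a proteasome subunit gene, they were 51 and 54 (0.557, 0.373 to 0.833), and next to Vps28, an endosomal sorting gene, 35 and 40 (0.601, 0.372 to 0.975). The 7 shared regions within 1 kb of a start had a median background-subtracted ratio of 0.658, and the other 112 had 1.21. Of the 7, 3 lay above 1.

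At the upper end, on chr6:126366069-126366314 and 166 kb from the potassium channel gene Kcna5, 10 fragments stood against 75, a ratio of 3.95 (2.03 to 8.56). Inside Ccm2, a gene of vascular malformation, 17 stood against 114 (3.53, 2.11 to 6.27). By background-subtracted ratio the next 3 were nearest to Aldh8a1, a retinaldehyde dehydrogenase gene, with 20 and 82, Zhx2, a homeobox gene, with 17 and 66, and Abcc4, a multidrug transporter gene, with 40 and 127. Without subtraction that of Abcc4 was 1.67, and other regions ranked above it. All 5 except that of Zhx2 were also in the wildtype list. They are the extremes of 119 regions, and a ranking by ratio favours low counts in the divisor.

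**Figure D2:**
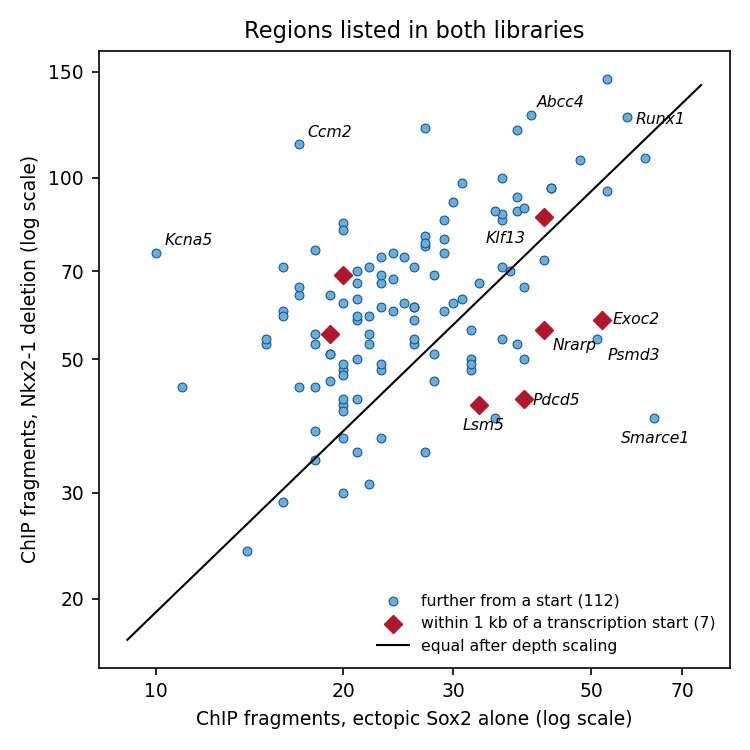
Each point is 1 of 119 regions in both lists, with ChIP fragments at the summit with ectopic Sox2 alone (x axis) and with Nkx2-1 deletion (y axis), both on log scales; the line marks equal signal at a depth ratio of 1.90. Most points lie on or above the line, and 4 of the 7 regions within 1 kb of a start (diamonds) lie below it.

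Summits of the ectopic list only lay at transcription starts more often than summits of the deletion list only. Of ectopic summits outside the deletion list, 22 of 108 (20.4%, 13.2% to 29.2%) lay within 1 kb of a RefSeq start, and 21 of these within 250 bp. Of deletion summits outside the ectopic list, 59 of 2367 (2.49%, 1.90% to 3.20%) lay within 1 kb. Shared summits had 7 of 113 (6.19%, 2.53% to 12.3%). These intervals cover counting error among the summits of 1 library per group, so the difference between groups has no replicate check. Starts of 17492 of the 21887 protein-coding genes were used, so a summit at another gene's start counts as distant, and the denominators leave out summits on chromosomes for which no start was used. By distance to either end of the span of all 21887 genes, 23 of 110 ectopic-only summits (20.9%, 13.7% to 29.7%), 10 of 119 shared summits (8.40%, 4.10% to 14.9%) and 80 of 2470 deletion-only summits (3.24%, 2.58% to 4.02%) lay within 1 kb.

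**Figure D3:**
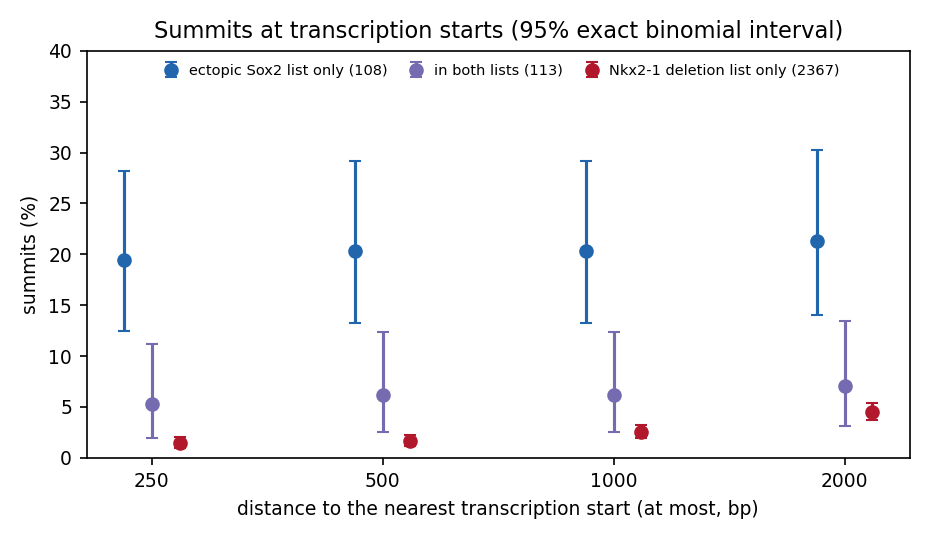
Points give the percentage of summits (y axis) that lie within 250, 500, 1000 or 2000 bp of a transcription start (x axis), with 95% exact binomial intervals, for the 3 sets. Summits of the ectopic list only stay near 20.4% at 500 and 1000 bp, and those of the deletion list only go from 1.61% to 2.49%.

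At single starts of the ectopic list only, Snrpb2, which encodes a spliceosomal protein, held 48 fragments 62 bp before its start. Ino80, the ATPase of a chromatin remodelling complex, held 44, and Palb2, a partner of the repair protein Brca2 whose start faces that of the dynactin gene Dctn5, held 63. Snx18, a sorting nexin gene, held 43, Ttc37, an RNA exosome cofactor gene, held 36, and Fan1, a nuclease gene of crosslink repair, held 36. Others were at Rpl22, a ribosomal protein gene, with 46, Hdgf, a growth factor gene, with 39, Psma1, a proteasome gene, with 31, and Ptma, the prothymosin gene, with 30. Neither the start of Snrpb2 nor that of Ino80 was in the deletion list, and their fragments in that library are not known. Scaled to its depth, the 48 at Snrpb2 would be 91.2 fragments and the 44 at Ino80 would be 83.6. Of the starts named here, those of Snrpb2, Palb2, Rpl22, Hdgf and Ptma were also in the wildtype list.

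Starts of the deletion list only included those of Sprr and glutathione genes, named here after their values were seen. The summit 151 bp before Sprr2a3, a small proline-rich protein of the cornified envelope, held 71 fragments, and that 183 bp before its neighbour Sprr2a2 held 57. Crnn, which encodes cornulin of the oesophageal lining, held 21 at 15 bp before its start. The Sprr2a genes are near-identical copies, so reads of 50 bp may be split among them. Gpx2, an epithelial glutathione peroxidase gene and a target of Nrf2, held 44 at 21 bp before its start, and Mgst1, a microsomal glutathione transferase gene, held 32 at 118 bp. Lpp, which encodes a protein of cell adhesions, had the highest −log10 q of all deletion summits within 1 kb, with 79 fragments 644 bp before its start. That summit was also in the wildtype list, and the others named here were not. Other starts were those of Cfl1, an actin-severing protein gene, with 43, Actn4, an actin crosslinker gene, with 34, and Rps9, a ribosomal protein gene, with 30.

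Starts of the ectopic list only lay mostly in CpG-rich sequence, and those of the deletion list only were mixed. Windows of 300 bases, from 250 before to 50 after a start, were searched on both strands where they held a summit, and windows of facing or alternative starts can overlap. A ratio of observed to expected CpG of at least 0.6 was found in 22 of 23 windows of the ectopic list only (95.7%), in 5 of 6 windows of both lists, in 15 of 30 of the deletion list only (50%), and in 47.7% of all 21263 windows. The letters CTTTGT were in 3 of 23 windows of the ectopic list only (13.0%), 2 of 6 of both lists and 13 of 30 of the deletion list only (43.3%), against 16.8% of all windows. ATTGT was in 6 of 23 (26.1%), 2 of 6 and 9 of 30 (30%), against 27.7% of all. The AP-1 letters TGANTCA were in 1 of 23, 0 of 6 and 8 of 30 (26.7%), against 6.99% of all, and the CCAAT box in 13 of 23 (56.5%), 2 of 6 and 8 of 30, against 38.2% of all. Letters of further factors, among them the GC box, TATA box, E-box and Ets sites, were also counted and are not given. With 6 to 30 windows per set, contrasts picked from several patterns were not tested.

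CpG content moves with these letters. Among all windows, CTTTGT was in 10.9% of those with a CpG ratio of at least 0.6 and in 22.1% of the others, and TGANTCA in 3.45% and 10.2%. In the deletion list only, CTTTGT was in 5 of 15 CpG-rich windows and 8 of 15 others, and TGANTCA in 3 and 5. Single sequences varied within each set. Of the 5 deletion starts shown above by rank within these windows, Lyrm1 holds 4 marked matches, Cutal 2 in tandem, Sprr2a3 1, and Emsy and Ablim1 0. Ino80 and Nrarp hold 1 each, and Snrpb2 and Pdcd5 0. Mtf2, also in both lists and not shown, holds 2. A match describes the letters and does not show that Sox2 bound there.

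The start of Nrarp, a feedback inhibitor of Notch signalling, carried the joined Sox and octamer letters. ATTGT and ATGCAAA with 1 base between occur in 6 of the 21263 windows (0.0282%), which belong to Nrarp, Exoc1, Nanog and Pipox. Nanog is a pluripotency gene known for such a site, and among these windows only that of Nrarp held a summit of either list. There the letters lie at chr2:25180703-25180715, with their centre 49 bp before the start. The summit lay 15 bp from that centre with ectopic Sox2 alone, 9 bp with Nkx2-1 deletion and 19 bp in wildtype. The region held 42 fragments with ectopic Sox2 alone, 56 with deletion and 69 in wildtype. The depth-scaled ratio of deletion to ectopic was 0.701 (0.462 to 1.07), and that interval includes 1. These letters were searched after the sequence of this window had been read.

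Of deletion summits outside the ectopic list, the one with the highest −log10 q was 188 kb from Prdm1, a transcriptional repressor with a role in terminal differentiation of the epidermis, with 121 fragments, which would be 63.7 at the depth of the ectopic library. Inside Sox5, which encodes a partner of Sox6 in cartilage and neural development, it was 92 (48.4 scaled), and 16.1 kb from Anxa1, the annexin A1 gene of squamous epithelia, 140 (73.7 scaled). At 85.5 kb from Id2, an inhibitor of basic helix-loop-helix factors, it was 85 (44.7), and inside Btrc, a ubiquitin ligase gene of the Wnt pathway, 82 (43.1). Tulp4, Cdc14b, Cntnap2, Bcl2l14 and Gm2016 completed the leading 10 with 71 to 94 fragments. The summits of Sox5, Anxa1, Id2 and Gm2016 were also in the wildtype list. Of ectopic summits outside the deletion list, the leading one lay 47.1 kb from the glycosyltransferase gene Galntl6 with 65 fragments, the highest count of any ectopic summit, and was also in the wildtype list. The next lay 60 bp from Znhit3, a zinc-finger HIT protein gene, with 45. Cspg4, a proteoglycan gene, had 26 at 1.51 kb. The others of the leading 10 were those of Snrpb2, Ino80, Palb2, Snx18, Ttc37 and Fan1 above and Mycn below.

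Genes were then grouped by role in 24 lists, and a gene was taken as near a site where any summit fell in its span or up to 50 kb from it. Of all 21887 protein-coding genes, 2873 (13.1%) were near a deletion summit and 335 (1.53%) near an ectopic summit. Near both were 193 (0.882%), near the deletion list alone 2680 (12.2%), near the ectopic list alone 142 (0.649%), and near a region listed in both 146 (0.667%). Near a wildtype summit were 2.85%. With a −log10 q of at least 5 the deletion and ectopic shares of all genes were 8.83% and 1.18%, and within 10 kb 6.47% and 0.736%. A long gene, or a cluster of neighbours that share a summit, is counted more readily than a short isolated gene.

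Factors of the squamous and basal programme were near a deletion summit for 8 of 28 members and near an ectopic summit for 1. Among all genes the shares were 13.1% and 1.53%. Trp63, the regulator of basal and squamous epithelium, had 5 summits inside the gene, with 83, 21, 27, 25 and 29 fragments in order along the chromosome. The strongest of them, at chr16:25780113-25780525, was also in the wildtype list, and the other 4 were in neither of the other lists. Klf5, a factor of proliferating epithelium, had 66 fragments inside the gene and 41 at 26.1 kb. Prdm1 had 3 summits within 50 kb led by 42, Ehf, an epithelial Ets factor, 2 led by 26, and Runx1 2 inside led by 56. Sox15, Grhl1 and Grhl2, factors of epidermal and epithelial differentiation, were led by 34, 40 and 39. The summit of Sox15, at 9.58 kb, lies 134 bp from Cd68 and is counted for that gene below as well. The member near an ectopic summit was Ovol2, a repressor of mesenchymal genes, with 27 fragments at 36.8 kb and no deletion summit. That ectopic summit lies 68 bp before the start of another gene, Pet117. With a −log10 q of at least 5, 5 of 28 members were near a deletion summit, against 8.83% of all genes. Within 10 kb, 7 were, against 6.47%.

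Of 20 desmosome and adherens junction genes, 11 were near a deletion summit and 1 near an ectopic summit, and within 10 kb 6 and 0. Of all genes, 13.1% and 1.53% were within 50 kb of a summit, and 6.47% and 0.736% within 10 kb. Desmosomes are the spot welds between keratinocytes, built from desmogleins and desmocollins. In the desmoglein cluster on chromosome 18, 59 fragments lay 183 bp from Dsg3 at chr18:20509958-20510255, a summit also counted for Dsg4 and Dsg2. In the desmocollin cluster, Dsc3 had 43 fragments inside the gene. The region 43.1 kb from Dsc1 was listed in both libraries, with 21 fragments with ectopic Sox2 alone and 58 with deletion, a ratio of 1.45 (0.869 to 2.52). Ctnnd1, which encodes p120 catenin, was led by 61 fragments, and Pkp1, a plakophilin gene, by 36. Of 11 hemidesmosome and laminin genes, 5 were near a deletion summit and 1 near an ectopic summit. Among those near a deletion summit were Col17a1, a hemidesmosome collagen gene, with 47 fragments, Lama3 with 35, Dst with 28 and Itga6, an integrin gene, with 24. With a −log10 q of at least 5 the counts were 2 and 0 of 11, against 8.83% and 1.18% of all genes. Within 10 kb they were also 2 and 0, against 6.47% and 0.736%.

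Keratin genes, the filaments of epithelial cells, were near a deletion summit for 10 of 23 members and near an ectopic summit for 3. The shares of all genes were 13.1% and 1.53%, but few summits stood behind the keratin counts. The 10 rested on 4 separate deletion summits, and the 3 on 1 ectopic summit. That one was shared: at chr15:101694411-101694659, 254 bp from Krt6a and 12.5 kb from Krt5, 29 fragments with ectopic Sox2 alone stood against 60 with deletion. The ratio was 1.09 (0.688 to 1.76), and 0.906 after subtraction of the control background. Krt12, Krt20 and Krt23 shared a summit of 47 fragments, and Krt13, Krt14, Krt15 and Krt19 shared a weak one of 30 at a −log10 q of 1.45. Krt13 and Krt14 mark suprabasal and basal layers. With a −log10 q of at least 5, 3 of 23 keratin genes were near a deletion summit and 3 near an ectopic summit, against 8.83% and 1.18% of all genes. Within 10 kb the counts were 1 and 1 of 23, against 6.47% and 0.736%, so the deletion count was then below that of all genes.

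Genes of the cornified envelope, the protein shell of terminal keratinocytes, had 8 of 25 members near a deletion summit and 1 near an ectopic summit. All genes had 13.1% and 1.53%. Anxa1 had 4 summits with 59, 61, 140 and 53 fragments. S100a8, a calprotectin gene, had 76 at 39.6 kb, Ppl, the periplakin gene, had 43 at 13.2 kb, and Ivl and Sprr4 shared 25. The Sprr2a1 locus was in both lists, with 92, 69, 73 and 57 fragments with deletion and 20 and 42 with ectopic Sox2 alone. At its start the shared region went from 20 to 69 (1.82, 1.09 to 3.15) and at the more distant one from 42 to 73 (0.914, 0.617 to 1.37). After subtraction of the control background these ratios were 1.64 and 0.651. Within 10 kb, 2 of 25 members were near a deletion summit, close to the 6.47% of all genes. With a −log10 q of at least 5, 4 were, against 8.83%.

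Within Sox6, both sites listed with ectopic Sox2 alone were also listed after deletion, beside 7 others. Sox6, a partner of Sox5, had 9 deletion summits inside the gene, with 62, 29, 88, 31, 111, 95, 23, 24 and 50 fragments along the chromosome, the largest number inside any protein-coding gene. Both ectopic summits of Sox6 were among these places, with 30 fragments where deletion had 62 (1.09, 0.692 to 1.74) and 38 where it had 88 (1.22, 0.824 to 1.83). The strongest deletion summits, of 111 and 95, were not in the ectopic list but were in the wildtype list. Sox5 had 3 deletion summits inside, with 35, 92 and 43 fragments, and 1 ectopic summit of 14 at a different place. Of 24 Sox and Nkx genes, 3 were near a deletion summit and 2 near an ectopic summit. These shares of 12.5% and 8.33% stand against 13.1% and 1.53% of all genes, so the deletion share was near that of all genes.

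Genes for detoxification and the Nrf2 response, which defends cells against oxidants, had 13 of 23 members near a deletion summit and 2 of 23 near an ectopic summit, the largest deletion share of the lists at 50 kb. Among all genes the 50 kb shares were 13.1% and 1.53%. That rank depends on the setting: Egf receptor genes led by nearest gene (8 of 15) and within 100 kb (10 of 15), and junction genes with a −log10 q of at least 5 (9 of 20) and without chromosome 19 (11 of 20). In these 4 settings the deletion shares of all genes were 8.48%, 20.7%, 8.83% and 12.4%. Within 10 kb, 8 of 23 were near a deletion summit, against 6.47% of all genes. The 13 rested on 21 separate summits. Abcc4, a multidrug transporter gene, had 38, 61, 38, 127 and 82 fragments, and the ectopic list held the fourth place with 40 (1.67, 1.16 to 2.45). Aldh3a1, an aldehyde dehydrogenase gene of stratified epithelia, had 60, Gclc and Gclm, the subunits of glutamate-cysteine ligase, 44 and 68, and Adh7, an alcohol dehydrogenase gene of the upper digestive tract, 36. Gsta4 and Gsta1, glutathione transferase genes, shared a summit of 35, and Slc7a11, the cystine transporter gene, had 52. Srxn1, the sulfiredoxin gene, was near an ectopic summit alone, with 14 fragments at 21.5 kb. Lists of this kind were chosen with earlier results of these data known.

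Among signalling pathways, Egf receptor ligands and receptors were near a deletion summit for 7 of 15 members and near an ectopic summit for 0. For this and the Notch list, the shares of all genes were 13.1% and 1.53%. By nearest gene, and also within 100 kb, 1 of the 15 was near an ectopic summit. Tgfa, a ligand, had 56, 40 and 43 fragments at 3 summits, and the ligand genes Ereg and Areg shared 1 of 50. Lrig1 and Errfi1, which restrain the receptors, had 82 and 28 inside, and the receptor gene Erbb3 had 38. Within 10 kb, 4 of the 15 were near a deletion summit, against 6.47% of all genes. In the Notch pathway 7 of 23 were near a deletion summit and 3 near an ectopic summit. Dll1, a ligand, had 43 against 20 at a shared region 3.88 kb away (1.13, 0.651 to 2.03). Lfng, which modifies the receptor, had 67, Maml2, a coactivator, was led by 65 among 4 summits, and Hes1, a target, had 49. Notch2, a receptor, was near an ectopic summit alone, with 13 fragments at 40.1 kb.

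Wnt pathway genes were near a deletion summit for 10 of 35 members and near an ectopic summit for 1. All genes had shares of 13.1% and 1.53%. Lrp6, a coreceptor, had 83 fragments at 42.6 kb, Wnt7a, a ligand, had 64 inside the gene, and Tcf7l2, a nuclear effector, 38. The summit of Lrp6 lies inside Bcl2l14 and is the one of that gene named above. Within 10 kb the deletion count was 4 of 35, against 6.47% of all genes. Wnt4 was near an ectopic summit alone, with 17 fragments inside. Hippo pathway genes had 6 of 21 and 2, or 3 and 1 with a −log10 q of at least 5. At that minimum all genes had 8.83% and 1.18%. Tead1, the DNA-binding partner of Yap1, had a shared region inside with 38 fragments with ectopic Sox2 alone and 53 with deletion (0.734, 0.475 to 1.14), and a further deletion summit of 53. Ccn2, a target gene of Yap1, had 3 deletion summits led by 40. Of the Fgf, Bmp, Tgf-beta and Hedgehog pathways, 6 of 33 were near a deletion summit, led by Smad3 with 47, and 1 near an ectopic summit, Fgf1 with 18. That deletion share of 18.2% stands against 13.1% of all genes and 20% of the housekeeping list. Within 10 kb the deletion count was 4 of 33, against 6.47% of all genes.

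Lung lists gave mixed counts, set against 13.1% of all genes near a deletion summit and 1.53% near an ectopic summit. Alveolar type 2 genes, the surfactant cell programme that Nkx2-1 sustains, had 2 of 18 near a deletion summit, Fasn with 38 and Il33 with 61, and 0 near an ectopic summit. Alveolar type 1 genes, of the flat gas-exchange cell, had 8 of 17 and 0, led by Ahnak with 91. Within 10 kb 3 were near a deletion summit, against 6.47% of all genes. With a −log10 q of at least 5, 4 were, against 8.83%. Airway secretory and ciliated genes had 5 of 19 and 1, or 2 and 1 without chromosome 19, and lung and foregut factors 5 of 26 and 1, led by Irx2 with 39 and Klf5 with 66. Foxa1, the pioneer factor of the endoderm, had 39 inside. Shares near the background of 13.1% or below it included those of gastric and intestinal genes (1 of 28), pluripotency genes (3 of 18), neural genes of Sox2 (2 of 18), and cell cycle genes (2 of 23). Housekeeping genes had 4 of 20. Markers of other cell types had 1 member each near a deletion summit and 0 near an ectopic summit: Cd68 of 12 immune genes with 34 fragments, Vwf of 12 endothelial genes with 34, and Dcn of 14 mesenchymal genes with 24. Mycn, a Myc family gene, was near an ectopic summit alone, with 27 fragments at 41.4 kb, a site also in the wildtype list.

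**Figure D4:**
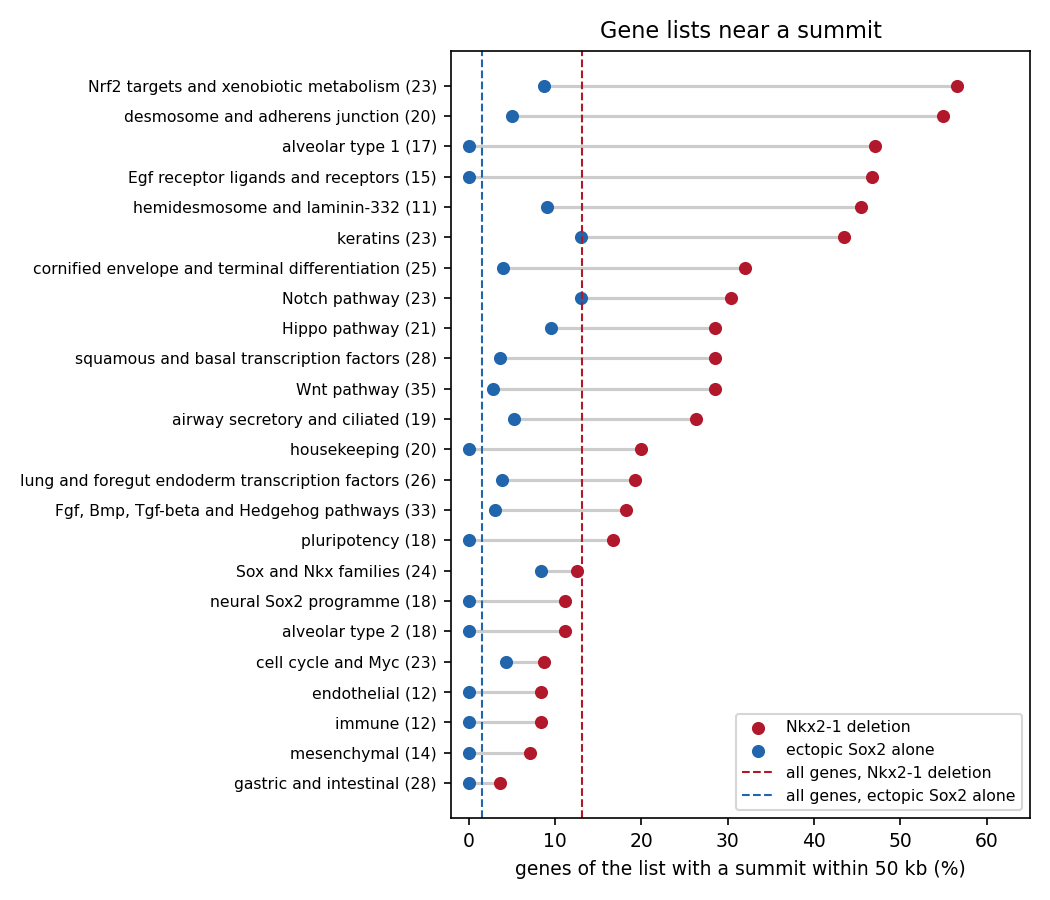
For 24 gene lists (number of genes in parentheses), points give the percentage of genes with a summit within 50 kb (x axis) with Nkx2-1 deletion and with ectopic Sox2 alone; dashed lines mark all genes, 13.1% and 1.53%. The deletion points of the detoxification and junction lists lie furthest right, at 56.5% and 55%.

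At least 3 summits lay inside 55 genes in the deletion list, inside 0 in the ectopic list and inside 4 in the wildtype list, and at least 1 inside 967, 96 and 222. Abcc4 held 4 inside with deletion and 5 in wildtype. After Sox6, the neuronal catenin gene Ctnna2 had 6 over 1098 kb. Slc25a21, Trp63, Myof, Exoc6b, Gnaq and Rbms3 had 5 each. Per length the densest of these was Myof, a membrane repair gene, with 3.46 per 100 kb, followed by Trp63 with 2.4, Gnaq, a G protein gene, with 1.95 and Sox6 with 1.58. The summits of Myof held 78, 47, 78, 58 and 39 fragments. A list 11.3 times as long gives more genes with several summits, and the part of depth in these counts was not tested.

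Of 1228 microRNA genes, 26 had a deletion summit within 10 kb (2.12%) and 4 an ectopic summit (0.326%). Mir135b, inside Lemd1, lay 2.88 kb from a region in both lists, with 36 fragments with ectopic Sox2 alone and 85 with deletion, a ratio of 1.24 (0.832 to 1.89). Mir1952 lay 3.77 kb from another, with 27 and 77 (1.50, 0.957 to 2.42). In the deletion list only were Mir21a, with 2 summits led by 42 fragments, and Mir125b-1, with 57. The mature RefSeq sequences of 3 of these are shown with the seed (bases 2 to 8) in capitals, and no seed is shared among them.
mmu-miR-135b-3p: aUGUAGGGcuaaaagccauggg
mmu-miR-21a-5p: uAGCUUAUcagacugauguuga
mmu-miR-125b-5p: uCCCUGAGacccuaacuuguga

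The lists were spread differently over the chromosomes. Chromosome 19 held 140 deletion summits (5.41%, 4.57% to 6.35%) and 1 ectopic summit (0.437%, 0.0111% to 2.41%), with 2.72% in wildtype. Chromosome 10 held 212 (8.19%) and 9 (3.93%). In the other direction, chromosome 3 held 6.45% of deletion and 10.9% of ectopic summits, and chromosome 1 held 6.68% and 10.5%. The median control background at deletion summits, on the scale of the list, was 3 on chromosome 19 and at most 2 on each other autosome. Anxa1, Ahnak, Myof, Gnaq, Btrc and Col17a1 lie on chromosome 19. A higher background there and more bound sites cannot be told apart from these lists.

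**Figure D5:**
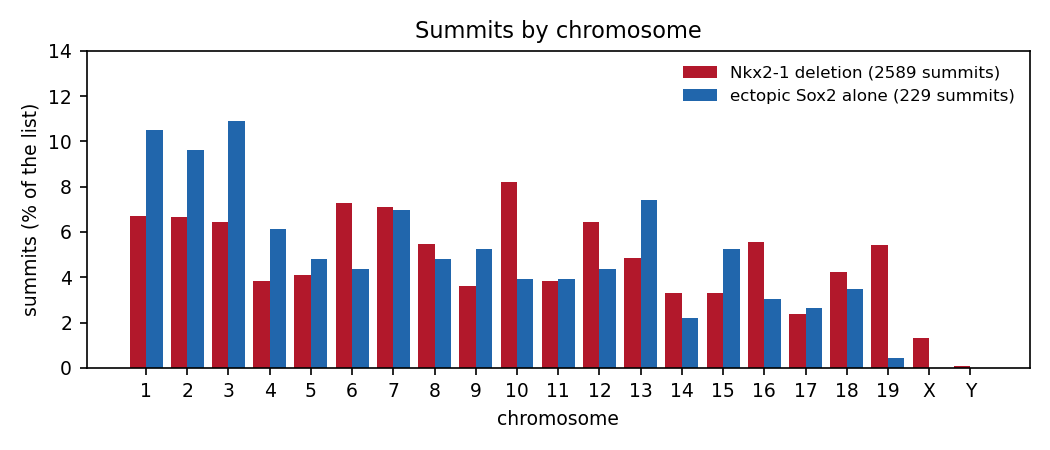
Bars give the percentage of each list's summits (y axis) on each chromosome (x axis), for Nkx2-1 deletion and for ectopic Sox2 alone. Chromosome 19 has 5.41% of deletion summits and 0.437% of ectopic summits, and chromosomes 1 and 3 have larger shares in the ectopic list.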

How the data were processed

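Sox2 ChIP-seq libraries, 1 per condition, were used as deposited peak lists; the series has 9 libraries, and the input and IgG ones were not used here. Per the submitters' processing notes, Bowtie2 2.2.9, SAMtools 1.4, MACS2 2.1.1, HOMER 4.8.3 and the build mm10 were used; which control and threshold stood behind a list is not given in the sources used here. Deposited lists hold, per summit, the authors' score, fold enrichment ratio, −log10 p and −log10 q, called per library. Positions are printed counting from 1.

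MACS2 writes the fold as (pileup + 1) / (background + 1) and p as a Poisson tail, so both were solved for whole fragments (tolerance 0.02), checked on simulated data. A unique value was found for 100% of ectopic and 99.96% of deletion summits, leaving 1 deletion summit without one. Mean coverage is the control background over the list's scale. Ratios at single regions are fragments divided by the depth ratio, with exact conditional binomial intervals; median ratios subtract the control background first. Shares have exact Clopper-Pearson 95% intervals, and fragments exact Poisson ones.

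Genes and starts came from RefSeq GRCm38.p6 (21887 protein-coding genes; 21263 start windows). Nearest genes need not be targets. Python 3.11 with scipy was used. All 24 gene lists (507 entries, of which Krt3 was not matched) and the members were chosen with earlier results of these data known. Genes named are the loci of Sox2 and Nkx2-1, the 10 shared regions with the highest ectopic −log10 q, the 5 highest and lowest ratios, the leading 10 summits of either list only, the 8 genes with most summits inside, and list members by −log10 q. Further genes at starts and microRNA genes were chosen after their values were seen. The values of 1 list member are not reported here. Alternatives changed the overlap rule, the −log10 q minimum, depth scaling, windows and the wildtype regions.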

Additional observations from a re-analysis of the deposited data

How the results depend on the processing

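No paired analysis was possible because each condition has 1 library and the labels carry no replicate numbers. The share of ectopic summits in the deletion list stayed between 48.5% and 52.0% under the 6 alternatives run. For these shares a −log10 q minimum was applied only to the list being counted. Of the 1616 deletion summits with a −log10 q of at least 5, 6.19% were in the whole ectopic list. At that minimum the ectopic list held 153 summits. The median ratio at shared regions was 1.27 without background subtraction and 2.29 without depth scaling, and 1.16 and 1.19 under the other 2. The share at starts for summits of the deletion list only was 1.61% within 500 bp, 4.52% within 2 kb and, by either end of gene spans (an alternative chosen after seeing the data), 3.24%; for the ectopic list only it ranged from 20.4% to 27.4%. Genes near a deletion summit numbered 1415 within 10 kb, 4531 within 100 kb and 1857 by nearest gene. For the ectopic list the numbers were 161, 536 and 219, and 206 without wildtype regions. Keratin genes near a deletion summit fell from 10 to 1 within 10 kb, cornified envelope genes from 8 to 2, alveolar type 1 genes from 8 to 3 and junction genes from 11 to 6, with all genes at 6.47%. Without chromosome 19, also chosen after seeing the data, airway genes went from 5 to 2. With a lowest listed count of 15 fragments in the deletion list and 10 in the ectopic list, weaker binding was not detectable.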
